A study of Mus musculus with 6 samples.

Results

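The genes that build cholesterol, and those that switch their transcription on and off, were followed in mouse megakaryocytic-erythroid progenitors, the marrow cells that give rise to platelet-forming megakaryocytes and to red cells. The set holds 28 genes, taken by symbol from the 52459 genes of the count table. It comprises 7 genes of SREBP control, 8 of the mevalonate and isoprenoid steps, 3 of squalene formation and ring closure, 9 of the route from lanosterol to cholesterol, and the sterol carrier Stard4. Other enzymes of the pathway are not part of the set. The study compared 3 libraries from wild-type mice, labelled WT, with 3 libraries from mice labelled Tmprss6-/-, called KO here. Tmprss6 encodes a membrane protease of liver cells that restrains the iron hormone hepcidin, and the series names its loss as a condition of iron deficiency. Each library came from sorted cells of 3 pooled mice. Both genotypes were sorted alike, as lineage-negative, cKit-positive and CD150-positive cells without Sca, Fc gamma receptor, CD105 or CD41, and their RNA was amplified with SMART-Seq v4. Strain, age, sex and the extent of the deletion were not given in the labels. Levels are given as CPM, counts relative to the scaled library total, and a pair means the WT and KO libraries that carry the same replicate number.

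Cholesterol is made from acetyl-CoA through mevalonate, the isoprenoids, squalene and lanosterol. Mevalonate also feeds ubiquinone, dolichol, and the lipid anchors of small GTPases. SREBP proteins, encoded by Srebf1 and Srebf2, are held in the endoplasmic reticulum by Scap and the Insig proteins when sterols are plentiful. When sterols fall, Scap carries them to the Golgi, where the proteases encoded by Mbtps1 and Mbtps2 release the part that enters the nucleus and binds sterol regulatory elements of the enzyme genes. NF-Y, which binds CCAAT boxes, and Sp1, which binds GC boxes, work beside SREBP at many of these promoters. Several steps use iron: Cyp51 carries heme, and Msmo1 and Sc5d are non-heme iron oxidases. Dividing blood progenitors need sterols for new membrane.

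RefSeq promoter windows on GRCm38.p6, from 250 bases before to 50 bases after a transcription start, were matched by symbol for 24 of the 28 genes, with 32 windows in all. Fdft1, Fdps, Sqle and Stard4 were not matched. Both strands were searched, and a base could count towards more than one motif. The sterol regulatory element core, spelled CACNCCAC, was present in 3 of 32 windows (9.38%), against 6.24% of all 32851 windows. The CCAAT box, spelled CCAAT, was present in 21 of 32 windows (65.6%), against 37.4% of all windows. It was in 16 of 20 windows of the genes outside SREBP control and in 5 of 12 windows of the SREBP control genes. The GC box, spelled GGGCGG, was in 78.1% of the windows against 35.7% of all, and the E-box, spelled CACGTG, in 18.8% against 7.15%. These are matches of letters and not measured binding. The core lay in the windows of Hmgcs1, Acat2 and Insig1. The upstream parts of 4 windows are printed 5′ to 3′ on the strand of the gene: Hmgcs1 and Acat2 as the enzyme genes with the core, Mvk as the gene with the most CCAAT boxes in its window, and Nsdhl as a gene of the late steps. The Nsdhl window held 4 CCAAT boxes, 2 of them in the printed upstream part. Capitals mark the sterol regulatory element core and the CCAAT box, read on either strand (CCAAT or ATTGG). The stretches are chr13:119690101-119690350 on the plus strand for Hmgcs1, chr17:12960748-12960975 on the minus strand for Acat2, chr5:114444019-114444268 on the plus strand for Mvk, and chrX:72918271-72918520 on the plus strand for Nsdhl.
Hmgcs1: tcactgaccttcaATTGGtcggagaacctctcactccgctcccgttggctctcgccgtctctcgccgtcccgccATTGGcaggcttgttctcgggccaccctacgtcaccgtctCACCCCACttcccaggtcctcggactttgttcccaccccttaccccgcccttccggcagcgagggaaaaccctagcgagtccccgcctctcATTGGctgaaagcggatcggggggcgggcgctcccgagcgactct
Acat2: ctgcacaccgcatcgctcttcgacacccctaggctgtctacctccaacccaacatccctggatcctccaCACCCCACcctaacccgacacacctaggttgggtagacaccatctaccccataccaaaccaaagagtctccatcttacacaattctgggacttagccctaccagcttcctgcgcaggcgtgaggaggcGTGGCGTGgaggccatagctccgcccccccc
Mvk: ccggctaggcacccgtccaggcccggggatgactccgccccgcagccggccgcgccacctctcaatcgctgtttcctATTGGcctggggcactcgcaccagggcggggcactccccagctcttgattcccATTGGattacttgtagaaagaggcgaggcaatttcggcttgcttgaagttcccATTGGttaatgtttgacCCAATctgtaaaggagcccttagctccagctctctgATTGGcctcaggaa
Nsdhl: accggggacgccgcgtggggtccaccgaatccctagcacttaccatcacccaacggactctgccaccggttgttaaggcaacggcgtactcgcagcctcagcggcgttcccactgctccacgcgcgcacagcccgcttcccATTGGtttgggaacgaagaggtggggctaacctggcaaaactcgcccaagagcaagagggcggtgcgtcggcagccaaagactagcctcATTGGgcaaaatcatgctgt

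Total counts ran from 13402209 to 22986837 per library. Tmprss6 itself had 0 to 5 counts in WT and in KO libraries alike, so it checks no label. All 11 progenitor markers, among them Kit, Gata1 and Gfi1b, were detected, with summed levels of 2672 to 5019 CPM in WT and 2579 to 4251 CPM in KO. KO replicate 2 stood apart. The 8 markers of eosinophils, basophils and mast cells summed to 7633 CPM there and to between 41.4 and 752 CPM elsewhere, and each of them was highest in it, as were the 10 neutrophil, 9 macrophage and 8 late erythroblast markers. B, T and plasma cell markers were high in KO replicates 2 and 3, at 1402 and 1093 CPM, against 45.6 to 188 CPM in the remaining libraries. Results are therefore given for all 6 libraries and for pairs 1 and 3, which leave it out. Other markers differed between genotypes in every pair. Proliferation genes summed to 912, 669 and 625 CPM in the WT replicates and to 1251, 1693 and 833 CPM in the KO replicates, and late erythroblast genes to 132 to 226 CPM in WT and 343 to 5172 CPM in KO. Pairs 1 and 3 were not free of such differences either. In them 3 of 10 proliferation genes, 4 of 8 late erythroblast genes and 1 B, T and plasma cell gene (Jchain) rose, where 0.258% of all genes did. In the same pairs 4 of 8 eosinophil, basophil and mast cell genes and 2 of 9 neutrophil genes tested fell, where 0.604% of all genes did, and 0 progenitor and 0 macrophage markers passed the test. The part of these cells and of proliferation in the results below was not tested. In sorted bulk RNA, a different number of cells of a type and a different amount of RNA per cell cannot be told apart.

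In WT progenitors all 28 genes were detected. Their mean levels ran from 0.305 to 101 CPM per kilobase of transcript. The low end was Fdps alone, and without it the lowest was Tm7sf2, at 1.71 CPM per kb. Lbr, a sterol reductase that also anchors chromatin at the nuclear envelope, had the highest level, 101 ± 16.3 CPM per kb (SD, n = 3). Ebp, the isomerase that shifts the sterol double bond, came next with 44.7 ± 8.34 CPM per kb, followed by Srebf1 with 33.6 ± 13.4 CPM per kb. The ranges of the latter pair overlapped. The second reductase for the step of Lbr, Tm7sf2, was near the bottom with 1.71 ± 0.600 CPM per kb, beside Mbtps2 with 2.02 ± 0.487 and Hsd17b7 with 2.05 ± 0.510 CPM per kb, and these 3 ranges overlapped too. Sqle, the squalene epoxidase, lay in the middle with 14.2 ± 2.06 CPM per kb. Fdps, which makes farnesyl diphosphate, was listed lowest with 0.305 ± 0.15 CPM per kb. The Fdps locus overlaps the predicted gene Gm43738 on the same strand, which had 0 counts, and the way shared reads were counted is not given in the sources used here.

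**Figure D1:**
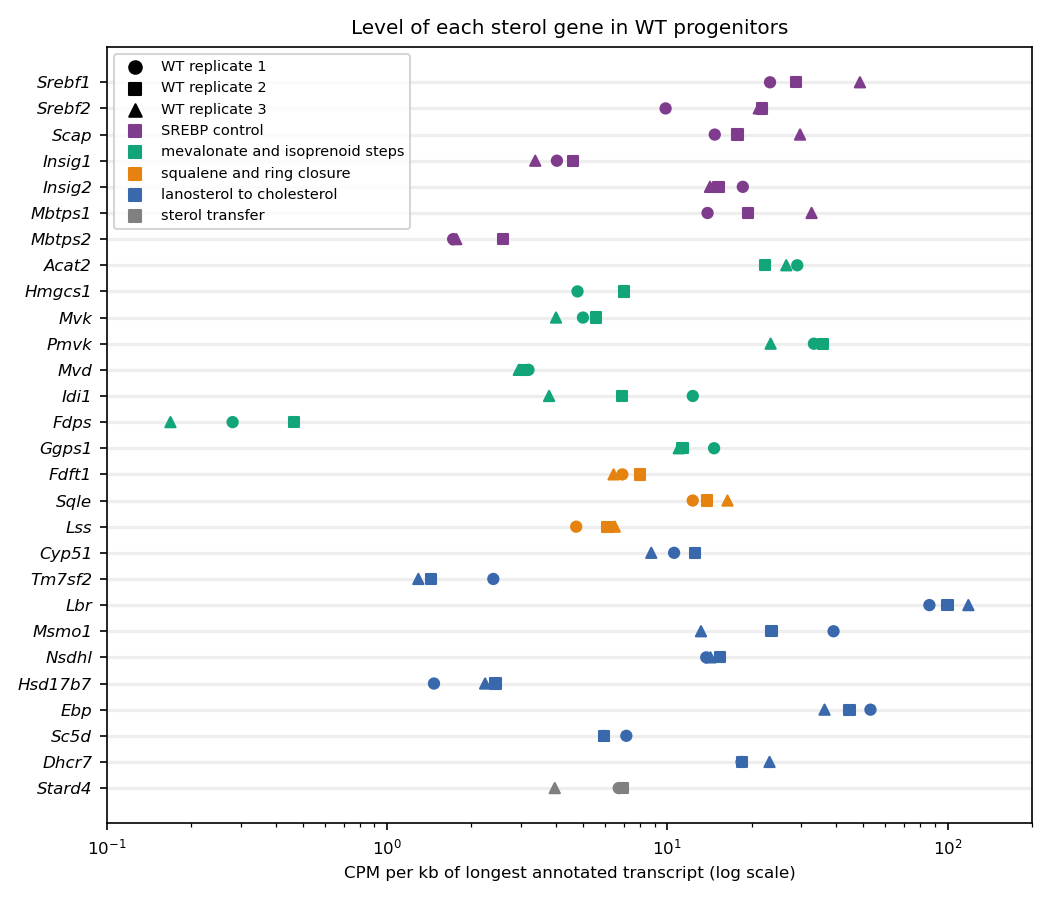
Level of each gene in the WT progenitors, as CPM per kb of the longest annotated transcript on a log axis, with one symbol per WT library and colours for the roles. Lbr lies at 86.1 to 119 CPM per kb and Fdps at 0.169 to 0.467 CPM per kb.

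Across all 6 libraries, 23 of the 28 genes had a higher level in KO, with a median log2 difference of 0.21, while 49.3% of all 13453 genes tested were higher and their median was −0.005. No single gene passed the test in that fit: edgeR's quasi-likelihood test called 0 of the 28 genes, against 0% of all genes. At an unadjusted p under 0.05 it held 1 of the 28 (Sqle) and 234 of all genes. DESeq2 called 6 genes, 0 of them in the set. The pairs differed. The median log2 difference of the 28 genes was 0.33 in pair 1, −0.02 in pair 2 and 0.20 in pair 3, with 23, 11 and 21 genes higher in KO. In 13 of the 28 genes the difference was positive in pairs 1 and 3 and negative in pair 2, as in 2220 of the 13453 genes tested.

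In pairs 1 and 3, fitted with a replicate block, 24 of 28 genes were higher in KO with a median log2 difference of 0.28, against 48.5% of all 13572 genes and a median of −0.01. One of the 28 genes, Sqle, rose at an adjusted p under 0.05, where 0.258% of all genes rose and 0.604% fell. At an unadjusted p under 0.05 there were 7 of the 28 genes (25.0%), all higher, against 13.2% of all genes in either direction. Of the 21 genes outside SREBP control, 20 were higher, with a median of 0.37. Of the 7 control genes, 4 were higher, with a median of 0.07. The difference between these sets was not tested, and genes of one pathway in the same libraries are not independent observations. That fit rests on 4 libraries and 1 residual degree of freedom, and without the block it called 0 genes.

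**Figure D2:**
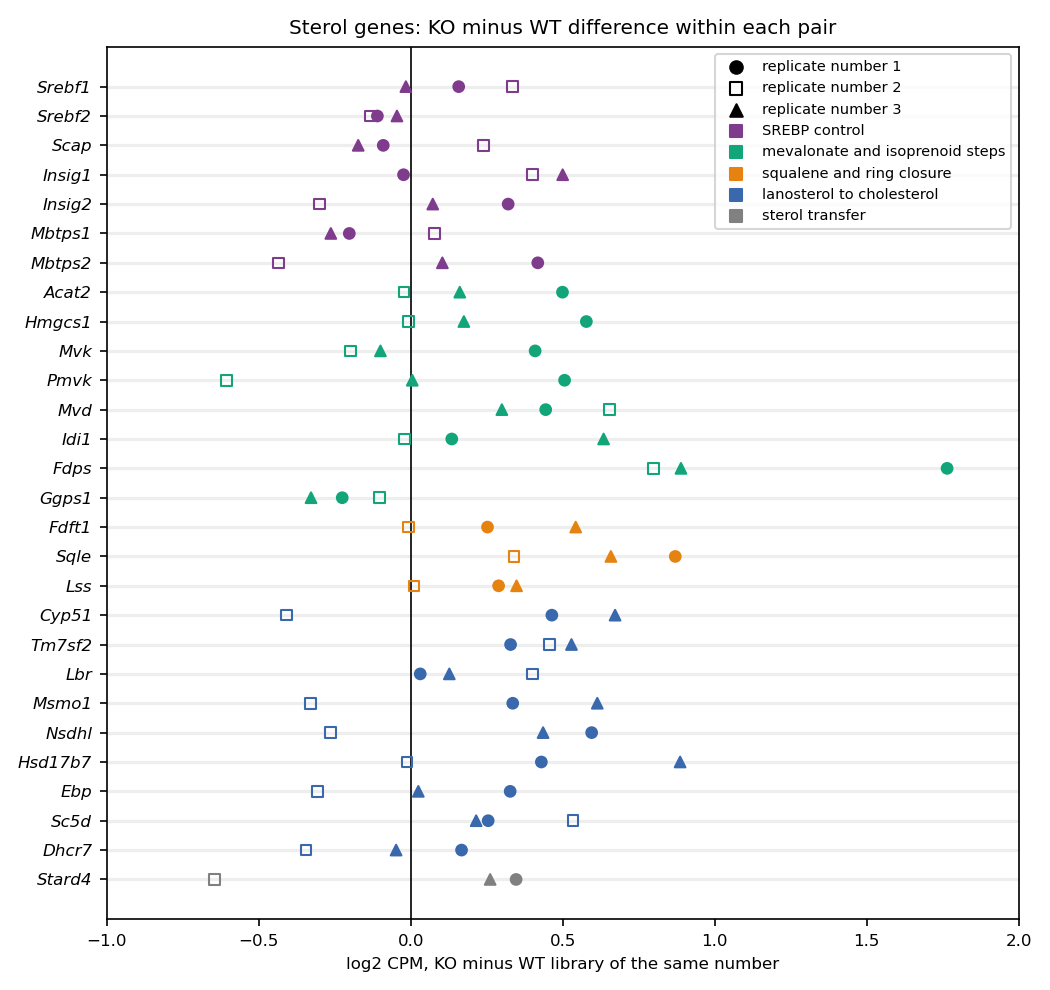
Difference in log2 CPM, KO minus WT, of each gene within each pair of libraries of the same number, with colours for the roles. Filled symbols (pairs 1 and 3) of the enzyme genes lie mostly to the right of 0, open squares (pair 2) on both sides of it, with pair medians of the 28 genes of 0.33, −0.02 and 0.20.

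A minority of the genes differed in one direction in every pair. Mvd, Fdps, Sqle, Lss, Tm7sf2, Lbr and Sc5d were higher in KO in 3 of 3 pairs, which is 25.0% of the set against 11.6% of all genes tested. Srebf2 and Ggps1 were lower in 3 of 3 pairs, 7.14% of the set against 13.3% of all genes. The KO and WT levels did not overlap, with KO above, in Mvd and Sqle, 7.14% of the set against 2.27% of all genes.

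Among the mevalonate and isoprenoid genes, 7 of 8 were higher in the fit of pairs 1 and 3 (median 0.35), and 0 passed the test. Within single pairs, 7 were higher in pair 1, 2 in pair 2 and 6 in pair 3. Acat2, a cytosolic thiolase that starts the route, had 65.4, 50.02 and 59.8 CPM in WT replicates 1, 2 and 3 and 92.5, 49.3 and 66.9 CPM in the KO replicates. Its groups overlapped, with KO replicate 1 the highest library and the libraries numbered 2 nearly equal (log2 difference in pairs 1 and 3 of 0.33, SE 0.13, edgeR adjusted p = 0.25). Acat2 shares 97.7% identity over 1477 nt with Acat3, so part of its reads could belong to that copy. Hmgcs1, the HMG-CoA synthase whose promoter is printed above, ran from 16.6 to 24.3 CPM in WT and from 24.2 to 27.4 CPM in KO, and the groups overlapped by a narrow margin (0.38, SE 0.21, edgeR adjusted p = 0.47). Mvd, the decarboxylase that ends the mevalonate steps, had 5.41 to 5.86 CPM in WT and 6.68 to 8.96 CPM in KO. All KO libraries lay above all WT libraries, yet with 76 to 144 counts per library the adjusted p was 1.00 in all 6 libraries and 0.71 in pairs 1 and 3 (edgeR). The Mvd locus overlaps the protein-coding gene Gm20388 on the other strand, which had 0 counts. How shared reads were counted is not given.

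Fdps showed the widest difference on the log2 scale and the least depth. It had 18, 20 and 7 counts in the WT replicates and 51, 40 and 14 counts in the KO replicates, or 0.830, 1.38 and 0.498 CPM against 3.12, 2.49 and 1.03 CPM. Each KO library was above its WT partner, but the groups overlapped, because KO replicate 3 lay under WT replicate 2 (pairs 1 and 3, 1.52, SE 0.73, edgeR adjusted p = 0.39). Ggps1, which diverts farnesyl diphosphate to geranylgeranyl diphosphate for protein anchors, was the exception of this stretch, with 46.6 to 62.3 CPM in WT and 37.1 to 53.3 CPM in KO (−0.28, SE 0.14, edgeR adjusted p = 0.41). Arid4b, on the other strand of that locus, differed by −0.23 (edgeR adjusted p = 0.56). Idi1, Pmvk and Mvk, the isomerase and the kinases, differed by 0.37, 0.26 and 0.16 on the log2 scale in pairs 1 and 3, with adjusted p of 0.47, 0.57 and 0.87 (edgeR).

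All 3 genes of squalene formation and ring closure were higher in pairs 1 and 3, with a median of 0.39. Sqle, the oxygen-using epoxidase that is a rate-limiting step of the pathway, was the one gene of the set that passed the test there. WT replicates 1, 2 and 3 held 55.0, 61.9 and 73.2 CPM, and the KO replicates 101, 78.3 and 116 CPM. Every KO library lay above every WT library, and the libraries numbered 2 were the closest pair. Its WT mean was 63.4 ± 9.19 CPM and its KO mean 98.2 ± 18.8 CPM (SD, n = 3 each). Sqle rose 1.70-fold in pairs 1 and 3 (log2 0.76, SE 0.12, edgeR adjusted p = 0.0043). In all 6 libraries the log2 difference was 0.63 (SE 0.27) with an edgeR adjusted p of 1.00, and in pairs 1 and 3 without the block the adjusted p was also 1.00. The call of Sqle thus comes from the fit with the block. Among calls of such fits on simulated data of another setting, described below, the share of false ones exceeded the threshold.

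Fdft1, the squalene synthase, had 25.6, 29.6 and 23.8 CPM in the WT replicates and 30.5, 29.5 and 34.7 CPM in the KO replicates. Its groups overlapped through the libraries numbered 2 (pairs 1 and 3, 0.39, SE 0.19, edgeR adjusted p = 0.38). The locus overlaps Ctsb on the other strand, a protease gene at 1715 CPM in KO replicate 2 and 307 to 489 CPM elsewhere, and the library kit does not mark the strand. Lss, which folds squalene epoxide into lanosterol, stood at 33.1, 42.8 and 45.4 CPM in WT and 40.4, 43.1 and 57.8 CPM in KO. Each KO library was above its WT partner, by 0.01 in pair 2, and the groups overlapped (0.32, SE 0.15, edgeR adjusted p = 0.37).

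Sqle and Srebf2 lie on chromosome 15, which also carries Tmprss6. Sqle spans chr15:59315077-59331192, 19.1 Mb from Tmprss6, and Srebf2 is 3.68 Mb from it. In pairs 1 and 3, 13 of 491 genes tested on chromosome 15 were called (2.65%) against 104 of 13081 elsewhere (0.795%). The strain background of the DNA around the deleted gene was not given, and its part in the Sqle difference was not tested.

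In the late steps from lanosterol to cholesterol, 9 of 9 genes were higher in the fit of pairs 1 and 3 (median 0.43). Within single pairs, 9 were higher in pair 1, 3 in pair 2 (median −0.26) and 8 in pair 3. None passed the test. Cyp51, the heme enzyme that demethylates lanosterol, had 41.6, 49.3 and 34.4 CPM in the WT replicates and 57.4, 37.1 and 55.0 CPM in the KO replicates. KO replicates 1 and 3 were above all WT libraries and KO replicate 2 was below WT replicates 1 and 2 (pairs 1 and 3, 0.57, SE 0.15, edgeR adjusted p = 0.085). Akap9, which overlaps Cyp51 on the other strand, differed by −0.30 in pairs 1 and 3 (edgeR adjusted p = 0.44).

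Nsdhl, the dehydrogenase of the demethylation complex, also had its highest levels in KO replicates 1 and 3, with 29.8, 33.4 and 30.9 CPM in WT and 45.1, 27.7 and 41.8 CPM in KO. KO replicates 1 and 3 lay above the WT range and KO replicate 2 below it (0.52, SE 0.16, edgeR adjusted p = 0.17). Msmo1, the iron oxidase of that complex, stood at 116, 69.8 and 39.1 CPM in WT and 147, 55.5 and 59.9 CPM in KO. The replicate number, more than genotype, ordered its levels, and the groups overlapped widely (0.46, SE 0.12, edgeR adjusted p = 0.094). Hsd17b7, the ketoreductase of the complex, had 6.78, 11.2 and 10.3 CPM in WT and 9.17, 11.1 and 19.2 CPM in KO. KO replicate 3 was the high library, and the other KO values lay within the WT range (0.67, SE 0.27, edgeR adjusted p = 0.29).

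**Figure D3:**
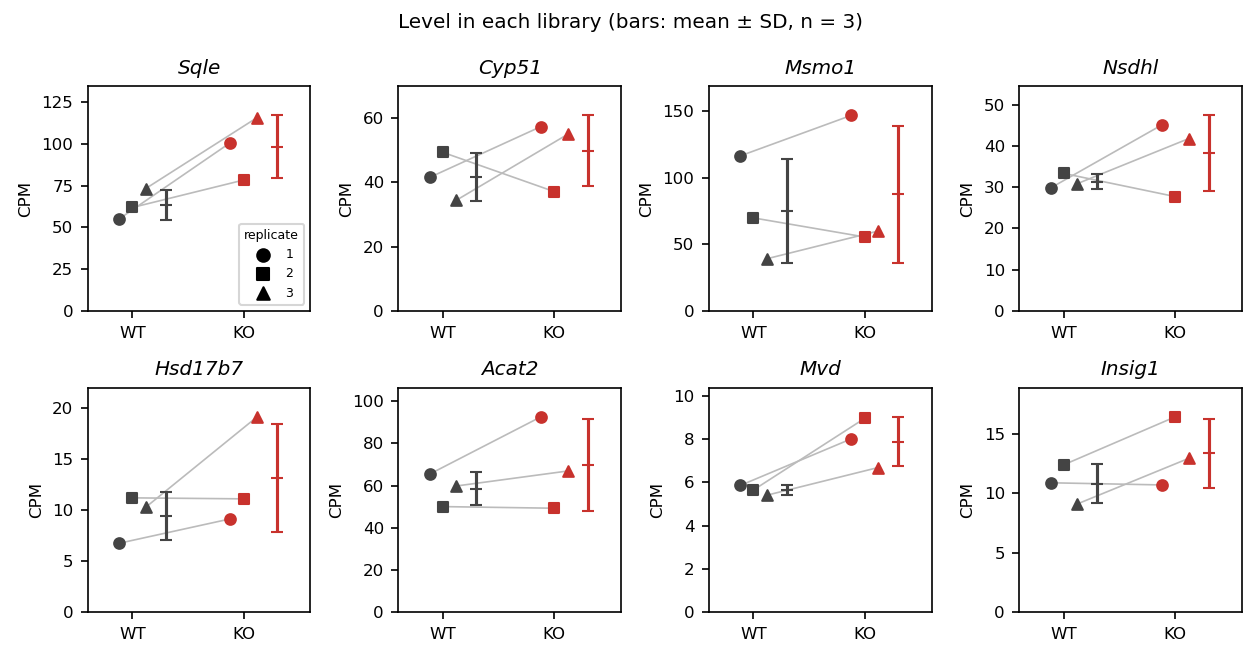
CPM of 8 genes in each library, WT in grey and KO in red, with a symbol for each replicate number, grey lines that join the libraries of the same number, and bars for the mean ± SD (n = 3). Sqle and Mvd have no overlap between genotypes, whereas KO replicate 2 of Cyp51, Msmo1 and Nsdhl lies below its WT partner.

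The remaining late genes had log2 differences of 0.06 to 0.43 in pairs 1 and 3. Tm7sf2 and Sc5d, the latter the iron-dependent desaturase near the end of the route, were higher in 3 of 3 pairs, by 0.43 and 0.23 on the log2 scale in pairs 1 and 3, with edgeR adjusted p of 0.65 and 0.62. Tm7sf2 overlaps Vps51 on the same strand. Lbr differed by 0.08 (edgeR adjusted p = 0.83) and was highest relative to its partner in KO replicate 2. Ebp differed by 0.18 and Dhcr7, the final reductase, by 0.06 (edgeR adjusted p of 0.60 and 0.91). Stard4, which ferries sterols between membranes, had 20.2 to 35.5 CPM in WT and 22.6 to 43.5 CPM in KO, a difference of 0.30 in pairs 1 and 3 and of 0.01 in all 6 libraries (edgeR adjusted p of 0.51 and 1.00).

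The SREBP control genes showed no common direction between genotypes, and 0 of 7 passed the test in either fit. Srebf1 had 99.9, 124 and 209 CPM in WT replicates 1, 2 and 3 and 112, 156 and 207 CPM in the KO replicates. Srebf2, the main driver of the cholesterol enzymes, had 50.03, 110.2 and 108 CPM in WT and 46.4, 100.4 and 104 CPM in KO. In both, libraries with the same number lay close together, and the log2 differences in pairs 1 and 3 were 0.07 (SE 0.11) and −0.08 (SE 0.12), with edgeR adjusted p of 0.87 and 0.85.

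Scap, the escort protein, was likewise close between libraries of the same number, with 62.4, 75.2 and 126 CPM in WT and 58.6, 88.7 and 111 CPM in KO (−0.13, SE 0.12, edgeR adjusted p = 0.70). Mbtps1, the first protease, stood at 94.4, 131 and 222 CPM in WT and 82.1, 138 and 185 CPM in KO (−0.24, SE 0.11, edgeR adjusted p = 0.39). Mbtps2, the second protease, had far less, 8.25, 12.4 and 8.47 CPM in WT and 11.1, 9.14 and 9.11 CPM in KO, with overlapping groups (0.27, SE 0.29, edgeR adjusted p = 0.78). The retention factors also overlapped. Insig1, itself an SREBP target, had 10.9, 12.4 and 9.11 CPM in WT and 10.7, 16.4 and 12.9 CPM in KO (0.23, SE 0.28, edgeR adjusted p = 0.80). Insig2 had 50.1, 41.1 and 38.3 CPM in WT and 62.6, 33.3 and 40.3 CPM in KO (0.20, SE 0.14, edgeR adjusted p = 0.63).

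In several of these genes the differences between replicate numbers were larger than those between genotypes. A test for any difference between the replicate numbers called 6 of the 28 genes (21.4%), near the 18.1% of all genes. Srebf1, Srebf2, Scap and Mbtps1 were higher in the libraries numbered 3 than in those numbered 1, by 0.98, 1.13, 0.97 and 1.20 on the log2 scale. The means of Srebf2 in the libraries numbered 2 and 3 were nearly equal, 105 and 106 CPM. Idi1 and Msmo1 were highest in the libraries numbered 1, by 1.44 and 1.43 over those numbered 3 on the log2 scale. Across 13443 genes measured in these libraries, the Spearman correlation between the difference of replicates 3 and 1 and the longest annotated transcript was 0.60. The set held exceptions to that order. Idi1 and Msmo1 have transcripts of 3027 and 2969 nt, near the median of all genes, and the long Stard4 (5097 nt) was lower in the libraries numbered 3, by −0.80. The correlation of the KO minus WT difference with length was −0.17 in pair 1, 0.34 in pair 2 and −0.22 in pair 3. The enzymes and the control genes had median lengths of 3083 and 4299 nt, against 3036 nt for all genes tested. With the length trend removed from each library, 25 of 28 genes were higher in pairs 1 and 3 with a median of 0.36, and Sqle rose by 0.87 on the log2 scale (edgeR adjusted p = 0.020).

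**Figure D4:**
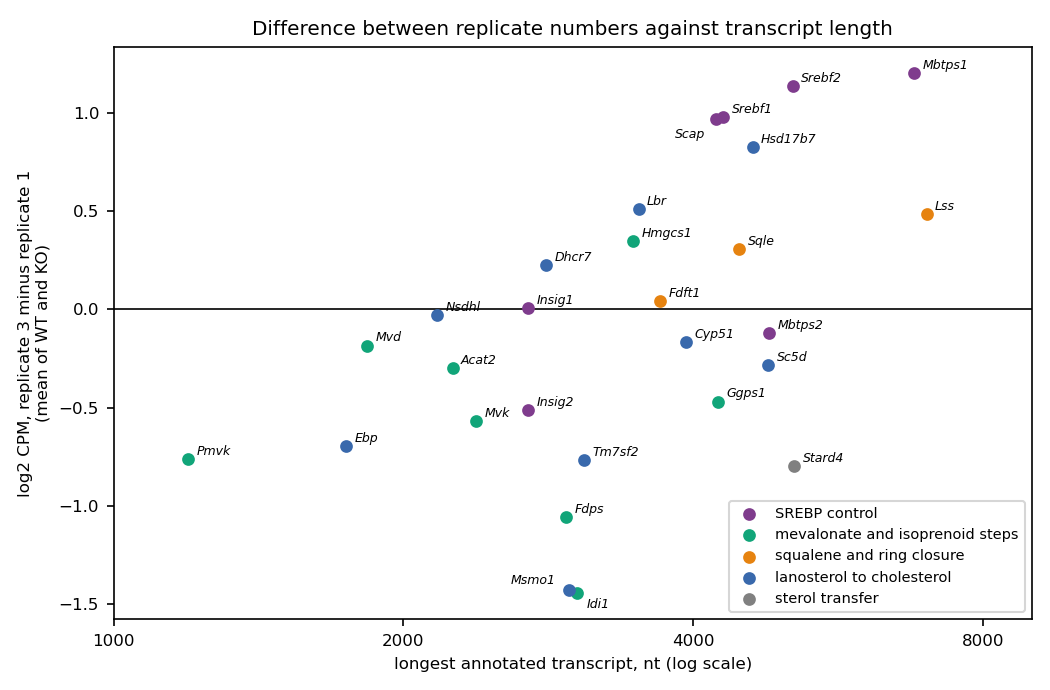
Difference in log2 CPM between the libraries numbered 3 and those numbered 1 (mean of WT and KO) for each gene, against the length of its longest annotated transcript in nt on a log axis. Mbtps1, Srebf2, Srebf1 and Scap lie at 0.97 to 1.20, whereas Idi1 and Msmo1 lie at −1.44 and −1.43.

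Of the genes of neighbouring lipid routes, 1 rose and 2 fell in pairs 1 and 3, where 0.258% of all genes rose and 0.604% fell. Of 16 genes of fatty acid synthesis tested, 8 were higher (median 0.00) and 1 passed: Lpin1, a phosphatidate phosphatase, fell by 0.57 on the log2 scale (SE 0.12, edgeR adjusted p = 0.037), while pair 2 differed by 0.52 the other way. Elovl1 and Aacs had higher values that did not pass (0.34 and 0.40, edgeR adjusted p of 0.17 and 0.24). Of 16 genes of sterol uptake, transport and esterification, 9 were higher (median 0.04), 1 rose and 1 fell. Tmem97, an SREBP target of the endoplasmic reticulum, rose from 189 and 94.1 CPM in WT replicates 1 and 3 to 267 and 136 CPM in KO (0.51, SE 0.11, edgeR adjusted p = 0.042), with 137 CPM in WT and 111 CPM in KO in pair 2. Gramd1a, which moves cholesterol from the plasma membrane inward, fell from 69.9 and 62.1 CPM to 41.3 and 35.0 CPM (−0.80, SE 0.14, edgeR adjusted p = 0.0097), whereas in pair 2 it had 72.6 CPM in WT and 118 CPM in KO.

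Genes that other mevalonate branches use gave 12 of 18 higher (median 0.05) and 0 called. Pdss1, which makes the ubiquinone tail, differed by 0.61 (SE 0.16, edgeR adjusted p = 0.097). Of 10 genes of sterol-driven degradation and SREBP turnover, 5 were higher (median 0.01) and 0 passed; Ube2g2 and Rnf145 differed by 0.19 and −0.16. LXR and sterol efflux genes, which respond to sterol excess, had 10 of 13 tested, with 6 higher (median 0.07) and 0 passed. Abca1, the cholesterol exporter, had 7.29, 32.5 and 42.6 CPM in WT and 3.00, 32.3 and 30.7 CPM in KO (−0.82, SE 0.24, edgeR adjusted p = 0.14). Abcg4, a sterol exporter, was at 48.4 CPM in KO replicate 2 and at 4.55 to 14.8 CPM elsewhere, and its log2 difference was 1.92 in all 6 libraries and 0.58 in pairs 1 and 3 (edgeR adjusted p = 0.49).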

How the data were processed

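The deposited values were unscaled counts of reads per Ensembl gene in 6 libraries. FastQC 0.11.5, STAR 2.5.3a, edgeR and the builds GRCm38.p3 and GRCh38.p3 are named by the submitters' processing notes. How shared or multiply mapped reads were counted is not stated in the labels or file headers. Counts of genes with near-identical copies or overlapping neighbours are therefore uncertain, among them Acat2, Fdft1, Fdps, Ggps1, Hmgcs1, Idi1, Lbr and Mvd. The table held 0 other columns of sample values.

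The filterByExpr filter of edgeR 4.0.16 was applied (minimum count 10, minimum total 15), which kept all 28 genes of the set. Counts were scaled by TMM and tested by edgeR's quasi-likelihood test (two-sided) with Benjamini-Hochberg adjustment over all genes tested and a threshold of 0.05, in R 4.3.3. Log2 CPM add a prior count of 2. SE denotes the standard error of a log2 difference. A floor of 3 counts corresponds to 0.138 to 0.220 CPM, which covers counting error only. In fits of KO against WT without a replicate block, p-values measure the spread between pools of 3 mice. With the block, differences between replicate numbers are taken out. Those p-values rest on how far the differences within pairs disagree and on a variance that edgeR pools over genes. They do not measure the full spread between pools.

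Labels do not say what a replicate number stands for. Deviations from the group means correlated at 0.53, 0.16 and 0.63 between libraries numbered 1, 2 and 3. The numbers were taken to pair the libraries, from these data alone. Libraries of unlike numbers were not compared in this way, and the ground for pairing those numbered 2 is weak. In all 6 libraries the replicate block fit gave 0 calls and a median of 0.21. Tested on simulated data, the fit of all 6 libraries recovered none of the changes made, and among calls of the fits with the replicate block the share of false ones exceeded the threshold. The simulated data took their replicate effects and spread from all 6 libraries, KO replicate 2 included. Their setting therefore differs from that of pairs 1 and 3.

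The members and lists were chosen with earlier results of these data known, as was the fit of pairs 1 and 3. The test of replicate numbers and the removal of a length trend were added after the data were seen. All 28 members may be named. Values by library are given for the control genes, for the 10 members of smallest p in pairs 1 and 3 and for any that passed, and from each other list up to 4 genes of smallest p per fit and all that passed, though some genes under this rule are not reported here. Alternatives were DESeq2 1.42.0, other size factors, no filter, a newer quasi-likelihood method and leaving out each library. Promoter windows are from RefSeq on GRCm38.p6. Motifs were counted in whole windows, and only the printed upstream stretches were cut where they enter the deposited gene span. Copies were sequences of at least 400 nt at 95% identity.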

Additional observations from a re-analysis of the deposited data

How the results depend on the processing

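Sqle was called in pairs 1 and 3 under every alternative run on those pairs except the fit without the replicate block, which called 0 members and 0 genes. The number of genes called in pairs 1 and 3 depended on the setting. It was 117 with the replicate block, 64 with other size factors (RLE), 190 with no filter on low counts, 226 with the newer quasi-likelihood method and 41 with the length trend removed. DESeq2 called 107 genes in pairs 1 and 3, 6 in all 6 libraries and 4648 between replicate numbers, where edgeR called 2435. The replicate block changed no call of a member in all 6 libraries. Members called went from 0 in all 6 libraries to 1 in pairs 1 and 3. Members higher in KO ran from 17 (without KO replicate 1) to 24 when each library was left out, with medians from 0.16 to 0.26. Values near 0 changed sign. Mbtps2 and Stard4 went to −0.0019 and −0.0085 with no filter, Pmvk and Stard4 to −0.029 and −0.0100 with the replicate block, Dhcr7 to 0.058 in pairs 1 and 3, and Srebf2 to 0.063 in pairs 1 and 3 with the length trend removed. Over the fits that left out one library, Srebf1 ran from −0.12 to 0.50, Mbtps2 from −0.10 to 0.23, Srebf2 from −0.39 to 0.19, Scap from −0.26 to 0.33, Insig2 from −0.24 to 0.25, Mbtps1 from −0.45 to 0.26, Mvk from −0.19 to 0.24, Pmvk from −0.40 to 0.20, Idi1 from −0.28 to 0.71, Msmo1 from −0.39 to 0.68, Ebp from −0.30 to 0.21, Dhcr7 from −0.19 to 0.10, Stard4 from −0.36 to 0.18 and Acat2 from −0.015 to 0.45. Of these changes of sign, 12 came without WT replicate 3 and 12 without KO replicate 1. The cause was not tested. Depth limits Fdps, Mvd and Tm7sf2 most.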
